A study of Mus musculus with 48 samples.

Results

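Chromatin accessibility at 6 cytokine genes of tumour-infiltrating CD8 T cells, Ifng, Tnf, Il2, Il10, Il21 and Csf2, was described across 21 groups of ATAC-seq libraries. ATAC-seq reads open chromatin from where the Tn5 transposase can insert adapters. A peak belonged to one of these genes when it overlapped the gene's body, or when that body was the nearest protein-coding one and lay within 100 kb. A peak over several bodies went to the gene whose boundary was closest to the peak's middle. This gave 68 of the 53868 deposited peaks: 27 for Ifng, 12 for Csf2, 11 for Il21, 10 for Il10, 6 for Il2 and 2 for Tnf. Of the 68, 9 overlapped the gene body itself. The farthest was an Ifng peak 99915 bp from the gene body with a mean of 19.8 normalised reads, and the first peak past the limit lay 104250 bp from Ifng with a mean of 62.4. Assignment by distance does not show which gene a peak acts on.

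All groups were OT-1 CD8 T cells, whose transgenic receptor recognises an ovalbumin peptide, and they expressed Cas9 and the CD45.1 allele. Naive-like splenic cells were given 1 lentiviral guide with an ametrine reporter, and ametrine-positive cells were moved into aged or young mice the day before B16-OVA melanoma cells, which make ovalbumin, were injected. Cells were sorted from the tumours after 15 days, several mice were pooled into each library, and a combination held 5000 to 50000 cells. The guide labels were Zfp219, Dusp5 and OTC. The labels give Zfp219 and Dusp5 as knockouts and OTC, which they do not spell out, as the control. Surface Slamf6 and Tim-3 (encoded by Havcr2) set the 4 sorted states: Slamf6 alone for Tprog (labelled progenitor exhausted), both for Ttran (transitory, effector-like), Tim-3 alone for Tterm (terminally exhausted), and neither for Ttad (age-associated dysfunctional). Ttad was sorted from aged hosts only. Each aged guide and state had 2 libraries, and each young one had 2 (Tprog) or 3 (Ttran and Tterm), giving 24 aged and 24 young libraries. Accessibility at the guide's own target gene does not check that it was cut, and no such check was made.

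The genes encode secreted proteins with distinct roles. Ifng (interferon gamma) and Tnf (tumour necrosis factor) are the effector cytokines with which CD8 T cells act on tumour and myeloid cells. Il2 and Il21 are growth and differentiation factors for lymphocytes, Csf2 encodes GM-CSF, which acts on myeloid cells, and Il10 encodes a cytokine that restrains inflammation and also supports activated CD8 T cells. As background, exhausted T cells are known to lose production of Il2 and Tnf earlier than that of Ifng, and accessible chromatin marks sites open to transcription factors without measuring transcription.

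The promoters of the 4 genes whose start-overlapping peak passed at least 1 comparison below are shown because the start site can then be set against the distal peaks. Each runs from 250 bases before to 50 after the RefSeq start (GRCm38.p6), 5′ to 3′ along the gene. They are Ifng at chr10:118440796-118441095 (plus strand), Il2 at chr3:37125905-37126204, Il21 at chr3:37232587-37232886 and Csf2 at chr11:54249850-54250149 (the last 3 on the minus strand). Capitals mark the NFAT core GGAAA or its complement TTTCC, and the TATA box TATAAA.
Ifng: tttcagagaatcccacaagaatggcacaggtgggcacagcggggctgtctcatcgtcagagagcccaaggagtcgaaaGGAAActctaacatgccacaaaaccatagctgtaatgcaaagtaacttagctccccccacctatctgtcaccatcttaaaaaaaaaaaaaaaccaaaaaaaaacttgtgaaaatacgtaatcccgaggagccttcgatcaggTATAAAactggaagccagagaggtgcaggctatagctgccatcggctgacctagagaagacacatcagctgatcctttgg
Il2: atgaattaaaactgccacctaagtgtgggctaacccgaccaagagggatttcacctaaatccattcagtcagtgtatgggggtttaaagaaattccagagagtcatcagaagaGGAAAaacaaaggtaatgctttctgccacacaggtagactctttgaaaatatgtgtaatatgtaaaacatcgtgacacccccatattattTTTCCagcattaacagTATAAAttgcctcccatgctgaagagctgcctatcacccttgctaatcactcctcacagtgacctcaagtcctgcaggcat
Il21: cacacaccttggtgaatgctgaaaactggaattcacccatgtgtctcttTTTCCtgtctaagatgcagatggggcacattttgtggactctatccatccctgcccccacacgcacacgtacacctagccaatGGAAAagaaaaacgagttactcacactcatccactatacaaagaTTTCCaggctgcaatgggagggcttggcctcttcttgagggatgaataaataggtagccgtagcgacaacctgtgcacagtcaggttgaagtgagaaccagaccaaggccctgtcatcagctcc
Csf2: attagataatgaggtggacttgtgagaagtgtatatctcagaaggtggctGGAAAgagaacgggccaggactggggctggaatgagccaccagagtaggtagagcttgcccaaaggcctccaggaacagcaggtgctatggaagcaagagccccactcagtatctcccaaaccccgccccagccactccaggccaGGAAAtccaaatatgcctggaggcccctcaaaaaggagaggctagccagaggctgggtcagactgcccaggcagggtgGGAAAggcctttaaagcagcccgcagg
The peak over the start covered all 300 bases at Ifng and Il2, 275 at Il21 and 238 at Csf2. The NFAT core matched 1 time in Ifng, 2 times in Il2 and 3 times each in Il21 and Csf2, a motif held by 61.3% of the 32851 RefSeq promoters of this length. TATAAA was found in Ifng and Il2 but not in Il21 or Csf2, against 13.6% of all promoters. Searched on both strands, the AP-1 motif TGANTCA (7.81% of all promoters) and the T-box motif TCACACC (3.98%) were in none of these 4 windows, nor in that of Tnf. These matches describe letters and not bound sites. Il10 was named only.

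Values are the authors' normalised reads per peak, that is, reads in the peak multiplied by 1 scaling factor for each library. Reads in peaks, recovered from the values, ranged from 5638413 to 16159054 in aged and from 6589023 to 29942755 in young libraries. Fold changes are differences of group means of log2(value + 1), tested with limma across all 53868 peaks with Benjamini-Hochberg adjustment. A peak is called where the adjusted p is under 0.05. Aged and young libraries came from separate sample sheets, so sheet and host age cannot be told apart. In these bulk libraries fewer cells of a kind and less accessibility per cell cannot be told apart either. Replicates are pools of mice, and p-values measure the spread between these pools. Peaks of the set shared by all libraries overlapped the starts of Cd8a, Cd3e, Cd3d and Cd3g, with 1 peak over both Cd3d and Cd3g. None overlapped those of Foxp3, Cd79a, Lyz2, Ncr1, Klrb1c, Dct or Tyr. Peaks away from the start were assigned to Klrb1c (8) and Ncr1 (1). Cd4 (2 peaks), Mlana (1) and Pmel (2) had no RefSeq promoter, so their starts were not checked. Of 4 myeloid genes listed, Itgam and Cd68 had a start peak, with means of 30.3 and 593 normalised reads. Their summed level was 473 to 789 in aged and 525 to 777 in young libraries, and its part in the results was not tested. At the genes of the sorting markers, group means ran from 143 to 389 at the Slamf6 start peak and from 554 to 1315 at the Havcr2 start peak. Their sum was 1028 to 1221 in Ttad, sorted without either marker, above the 873 to 989 of aged Tprog. The sum joins 2 markers of unlike level and does not show which of them differed.

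The strongest peak of each gene gave the first view of these loci. It lay 28.9 kb downstream of the start at Ifng (mean 1343 normalised reads over all libraries), 2.6 kb inside the lower-coordinate end of the gene body at Il10 (1156), 1.3 kb into Tnf (675), 34.6 kb downstream of Csf2 (663), 25.3 kb upstream of Il21 (526) and 48.1 kb upstream of Il2 (487). The median member peak held 172 normalised reads against 93.9 for all peaks, at 194 and 108 per kb of peak. Of the 68 peaks, 61 varied among the 21 groups (limma moderated F test, adjusted p under 0.05), beside 75.9% of all peaks. Some peaks lie in long noncoding genes whose accessibility cannot be separated from that of the member: Ifngas1 overlapped 3 Ifng peaks, Gm12223 all 12 Csf2 peaks, 4933405E24Rik 6 of them, Gm36000 the strongest Il2 peak and Gm12532 1 Il21 peak.

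**Figure D1:**
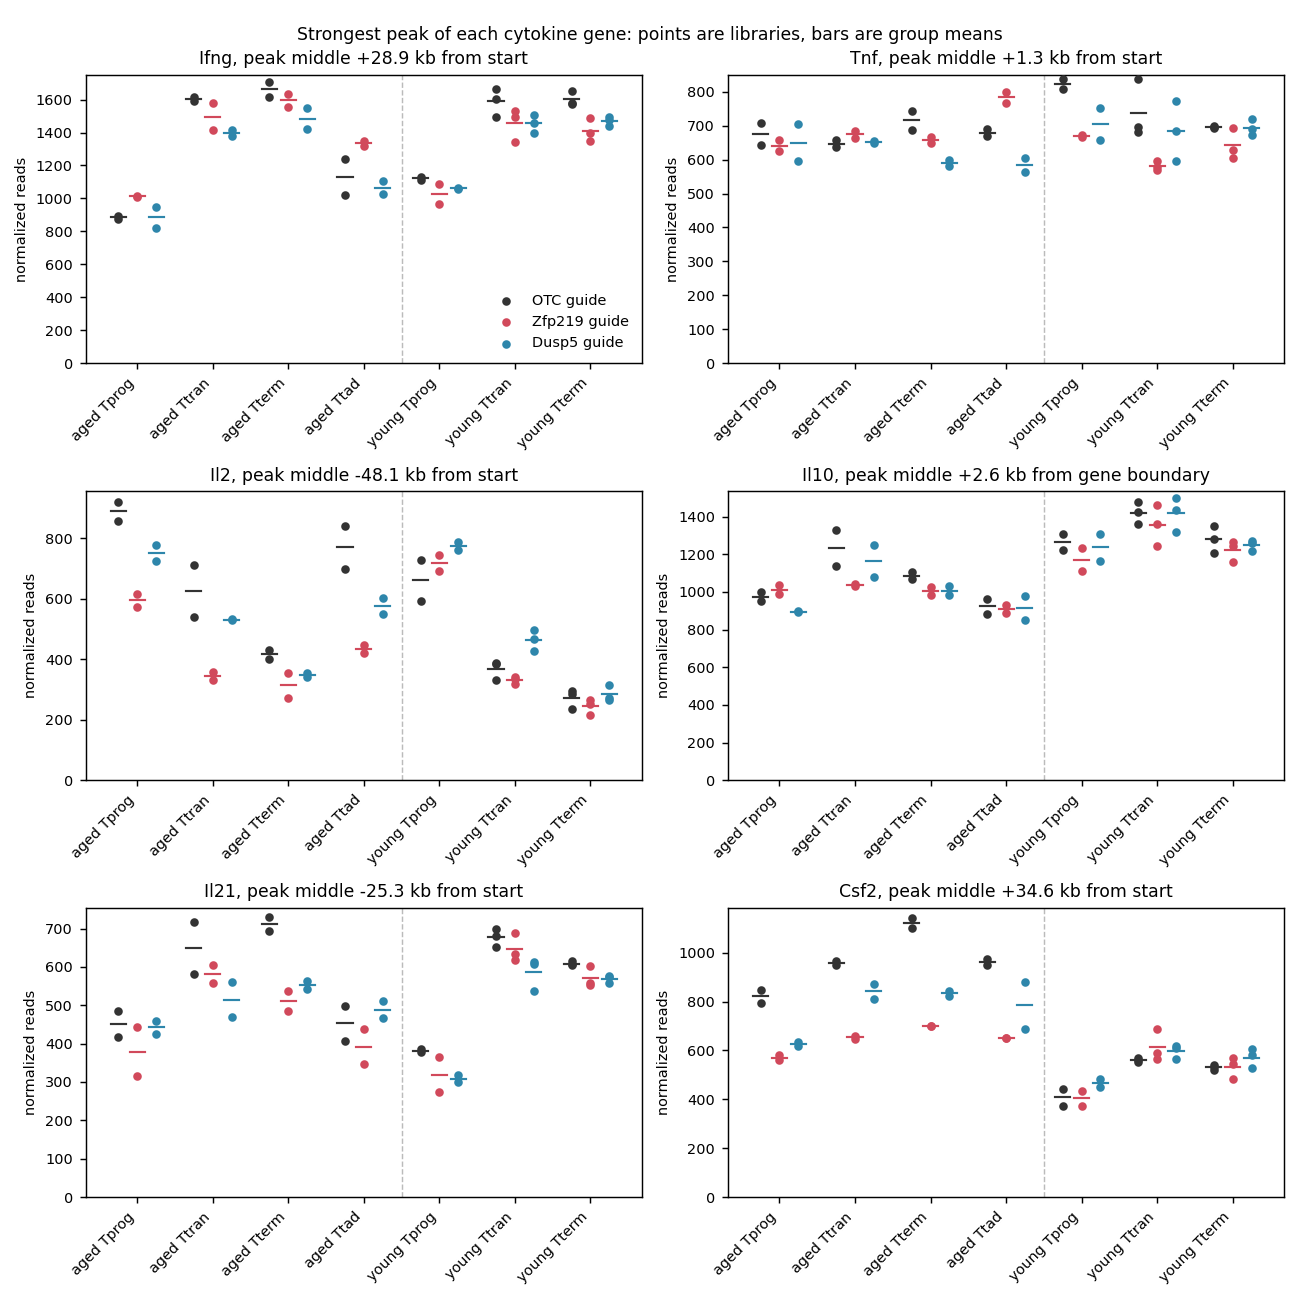
Normalised reads at the strongest peak of each gene, 1 panel per gene, with libraries as points and group means as bars, arranged by host age, sorted state and guide (OTC, Zfp219, Dusp5). Within each age and guide the Ifng mean is lowest in Tprog and the Il2 mean is highest there. The Csf2 mean over states is highest in aged OTC libraries, whose range overlaps that of aged Dusp5 libraries. The Tnf peak keeps a narrow range.

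Sorted state separated Ifng from Il2 in opposite directions. In aged OTC libraries 20 of 27 Ifng peaks were called lower in Tprog than in Tterm and none higher (median log2 fold change -0.93), while 4 of 6 Il2 peaks passed as higher and none as lower (median 1.07). In young OTC libraries 17 Ifng peaks were lower (median -0.73) and all 6 Il2 peaks higher (median 1.10). Over all peaks 20.1% were called in the aged comparison, 8.88% higher and 11.2% lower, and 26.5% in the young one, 13.9% higher and 12.6% lower. The median over all peaks was within 0.03 of 0 in either age. Over the 6 genes together 34 of 68 peaks were called in aged libraries (8 higher, 26 lower) and 38 in young ones (12 higher, 26 lower). The Il2 count in aged libraries fell to 2 without Tprog library 1 or without Tterm library 2.

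At Ifng, the strongest peak (chr10:118468895-118471093) held 891 and 878 normalised reads in the aged OTC Tprog libraries, 1617 and 1591 in Ttran, 1707 and 1617 in Tterm, and 1021 and 1242 in Ttad. In young OTC libraries it held 1128 and 1115 in Tprog, 1664, 1606 and 1497 in Ttran, and 1651, 1573 and 1581 in Tterm. Tprog lay below all other states in either age with no overlap, and Ttad lay between Tprog and the 2 Tim-3-positive states. Tprog against Tterm gave a log2 change of -0.91 (SE 0.08, adjusted p = 9.75e-17) in aged and -0.51 (SE 0.07, adjusted p = 9.14e-09) in young libraries. The difference between the ages was itself called, at -0.39 (SE 0.11, adjusted p = 0.0238), as it was for 3 member peaks in all, each lower, beside 2.32% of all peaks (1.81% lower). The same contrast in libraries with a Zfp219 guide gave -0.65 aged and -0.46 young, and with a Dusp5 guide -0.75 and -0.47, each called. Ranked over the 21 groups, all 6 Tprog groups and the Ttad groups of OTC and Dusp5 took the 8 lowest places, from 885 to 1132 in the mean, and the Ttad group of Zfp219 followed at 1334. The Tterm and Ttran groups above ran from 1397 to 1662, with an SD within groups of 18.4 to 115. The order of groups within this range was not tested.

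The largest state change at Ifng was at a weaker peak 41.5 kb downstream (chr10:118482165-118482957). Aged OTC libraries held 69.1 and 61.2 normalised reads in Tprog, 197 and 265 in Ttran, 331 and 284 in Tterm, and 106 and 117 in Ttad, with no overlap between any of these states. Tprog against Tterm was -2.22 (SE 0.23, adjusted p = 6.49e-13) in aged and -1.90 (SE 0.21, adjusted p = 5.04e-12) in young libraries, and in the other guides it ran from -1.94 to -2.68. The peak over the Ifng start and body (chr10:118440469-118443403) moved less. It held 1065 and 940 in aged OTC Tprog and 1229 and 1214 in Tterm, a log2 change of -0.29 (SE 0.08, adjusted p = 0.00641), and -0.14 in young libraries (SE 0.08, adjusted p = 0.168). Its aged call was lost under quantile normalisation (adjusted p = 0.18) and without Tprog library 2 (0.204) or Tterm library 1 (0.0541). A peak 5.5 kb upstream of the start (chr10:118435059-118436013) was lower in aged Tprog (606 and 546) than in aged Tterm (925 and 805), whereas young Tprog held 675 and 720 against 652, 646 and 663 in Tterm. The difference between the ages there was -0.68 (SE 0.14, adjusted p = 0.00149). This call was kept in every alternative tried, whereas under quantile normalisation and without any 1 of 5 libraries it was the 1 call of the 3 left, so the age difference at the strongest peak was then lost.

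**Figure D2:**
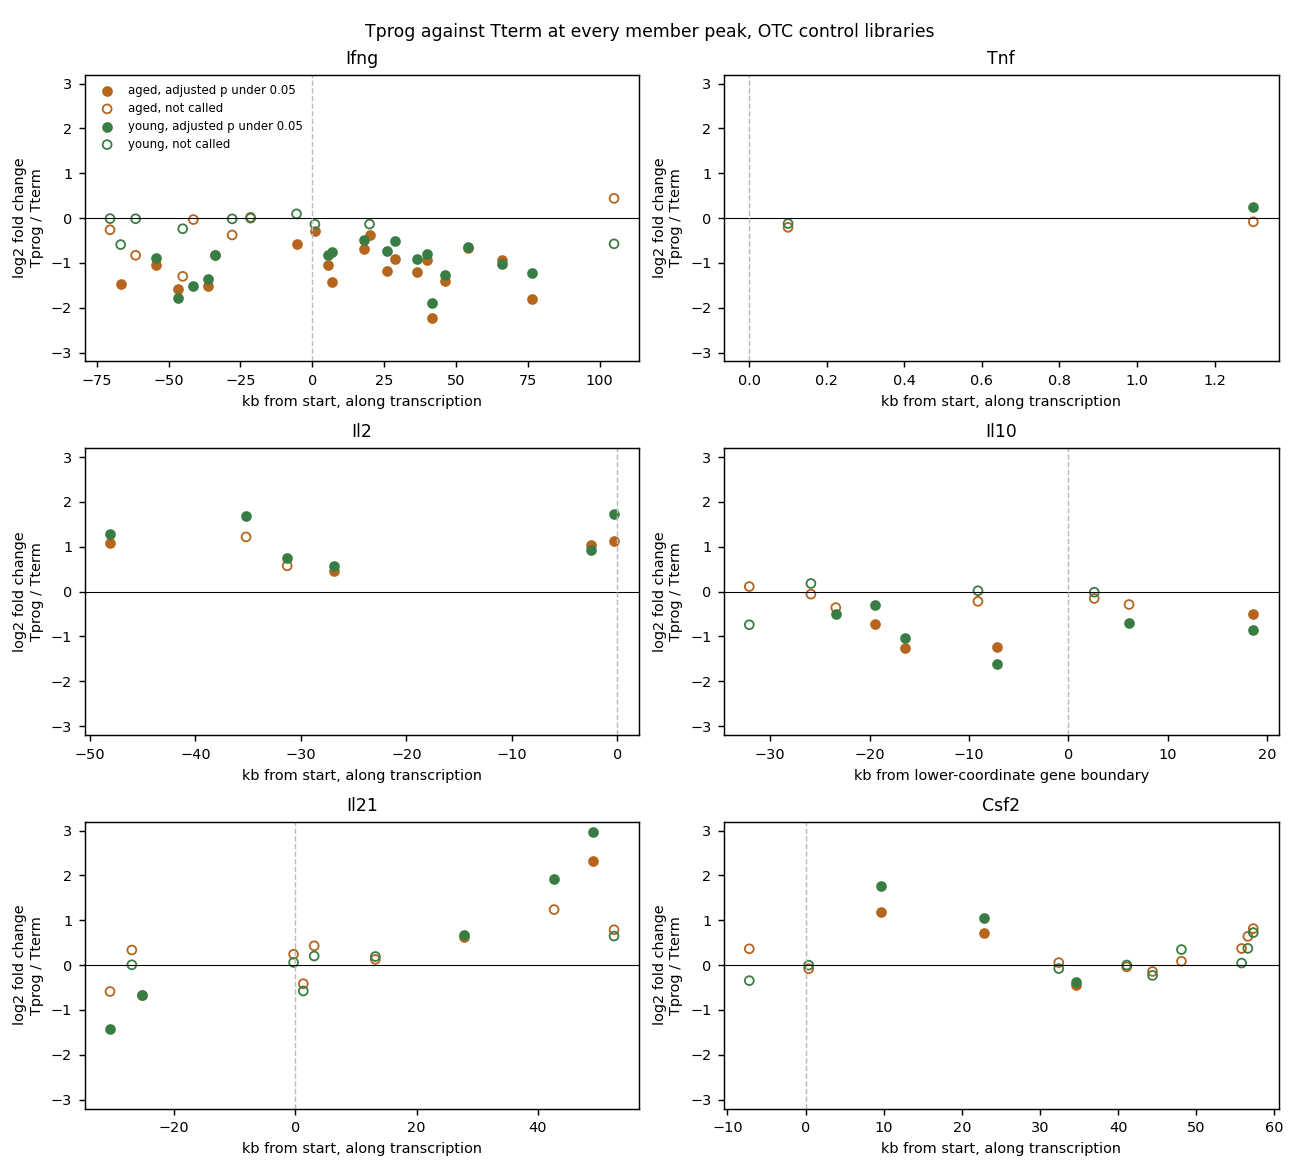
Log2 fold change of Tprog against Tterm in OTC libraries for each peak (y axis) by its distance in kb from the annotated start, or for Il10 from the lower-coordinate end of the gene (x axis), aged in orange and young in green, with filled points where the adjusted p was under 0.05. Ifng peaks with a call sit below 0, at the start and on either side of it. Il10 peaks with a call also sit below 0, and Il2 peaks with a call sit above it, at the start and upstream.

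At Il2, the strongest peak, 48.1 kb upstream (chr3:37172987-37175105), held 919 and 858 normalised reads in aged OTC Tprog, 713 and 540 in Ttran, 402 and 432 in Tterm, and 842 and 700 in Ttad. Young OTC libraries held 729 and 594 in Tprog, 388, 332 and 383 in Ttran, and 284, 237 and 294 in Tterm. Tprog was higher than Tterm with no overlap, and aged Ttad overlapped Ttran but not Tterm. The log2 fold change of Tprog against Tterm was 1.09 (SE 0.13, adjusted p = 8.29e-11) in aged and 1.28 (SE 0.12, adjusted p = 1.31e-15) in young libraries, and Ttad against Tterm gave 0.88 (SE 0.13, adjusted p = 5.93e-07). The peak over the Il2 promoter (chr3:37125704-37126777), whose sequence is given above, was not higher in Ttad than in Tterm with OTC. It held 144 and 121 in aged OTC Tprog, 117 and 43.0 in Ttran, 58.8 and 61.4 in Tterm, and 60.4 and 65.3 in Ttad. Tprog exceeded Tterm by 1.12 (SE 0.35, adjusted p = 0.0134) in aged and 1.74 (SE 0.32, adjusted p = 8.23e-06) in young libraries, while Ttad against Tterm was 0.06 (SE 0.35, adjusted p = 0.952). With a Zfp219 guide Ttad exceeded Tterm there by 1.36 (SE 0.35, adjusted p = 0.0191), with 69.5 and 81.0 in Ttad against 17.1 and 47.4 in Tterm. The Tterm value of 17.1 was the lowest of all libraries at this peak. Leaving out single libraries was not tried for this contrast. The difference in Ttad between the distal and promoter peaks was not tested. The aged Tprog call at the promoter was lost without Tprog library 1 (adjusted p = 0.127) or either Tterm library (0.0819 and 0.0606).

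Tnf carried 2 peaks, both over the gene, with little change. The start peak (chr17:35201459-35202329) held 347 and 362 normalised reads in aged OTC Tprog, 340 and 327 in Ttran, 484 and 346 in Tterm, and 335 and 413 in Ttad, with overlapping states, and no comparison called it. The peak 1.3 kb into the gene (chr17:35200296-35201216) held 837 and 808 in young OTC Tprog against 699, 694 and 697 in Tterm, a log2 change of 0.24 (SE 0.09, adjusted p = 0.0485). Leaving out any 1 of these 5 libraries ended that call, with adjusted p from 0.0858 to 0.229. In aged OTC libraries the 2 states held 708 and 642, and 688 and 743, with no call. Lta and Ltb, the lymphotoxin genes that flank Tnf, had no called difference between Tprog and Tterm at their strongest peak in aged libraries (log2 -0.08, adjusted p = 0.692, and -0.13, adjusted p = 0.289).

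Il10 followed the direction of Ifng. In Tprog against Tterm, 4 of 10 Il10 peaks were called lower in aged OTC libraries and 6 in young ones, with none higher, and the aged count was 2 without Tprog library 2. A peak 16.4 kb below the lower-coordinate end of the gene (chr1:131003134-131003730) held 215 and 266 normalised reads in aged OTC Tprog, 478 and 545 in Ttran, 537 and 609 in Tterm, and 441 and 403 in Ttad. Tprog lay below the other states with no overlap, at -1.25 against Tterm (SE 0.13, adjusted p = 1.47e-13) in aged and -1.03 (SE 0.12, adjusted p = 6.51e-12) in young libraries. Another, 19.5 kb below that end (chr1:130999540-131001081), gave -0.72 (SE 0.09, adjusted p = 1.27e-10) in aged and -0.30 (SE 0.08, adjusted p = 0.00179) in young libraries, and the difference of -0.41 was called (SE 0.12, adjusted p = 0.0369). That call was lost under quantile normalisation (adjusted p = 0.279) and without any 1 of 7 of the 9 libraries compared. The strongest peak, over the gene body (chr1:131021517-131023388), was not called between Tprog and Tterm in OTC libraries of either age.

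Il21 and Csf2 peaks went in either direction by state. Among 11 Il21 peaks, Tprog of aged OTC libraries exceeded Tterm at 2 and lay below it at 1, and in young ones the numbers were 3 and 2. The aged total of 3 was 5 in a fit of the compared groups alone, and the young total of 5 was 3 without Tprog library 1. The Il21 peak 49.1 kb downstream of the start (chr3:37183138-37183992) held 48.7 and 77.2 normalised reads in aged OTC Tprog, 36.1 and 11.2 in Ttran, 10.9 and 11.9 in Tterm, and 10.1 and 14.8 in Ttad. Tprog stood above the other states with no overlap, at 2.33 against Tterm (SE 0.58, adjusted p = 0.00148), and at 2.96 in young libraries (143 and 89.0 against 11.4, 15.7 and 14.1, SE 0.53, adjusted p = 5.33e-06). This peak lies between Il21 and Il2 on chromosome 3 and went with the Il2 peaks in direction. The strongest Il21 peak, 25.3 kb upstream (chr3:37257357-37258488), went the other way: 486 and 418 in aged OTC Tprog, 582 and 716 in Ttran, 730 and 694 in Tterm, and 408 and 498 in Ttad. Its log2 fold change of Tprog against Tterm was -0.66 in aged (SE 0.13, adjusted p = 2.33e-05) and -0.67 in young libraries (SE 0.11, adjusted p = 1.71e-06).

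Of 12 Csf2 peaks, 2 were called higher and 1 lower in Tprog than in Tterm in either age. The peak 9.7 kb downstream of the start (chr11:54239819-54240645) held 306 and 321 normalised reads in aged OTC Tprog, 176 and 145 in Ttran, 140 and 137 in Tterm, and 397 and 339 in Ttad. Tprog and Ttad lay above Ttran and Tterm with no overlap, so the 2 Tim-3-negative states were the higher ones here. Against Tterm, Tprog gave 1.18 (SE 0.29, adjusted p = 0.00139) and Ttad 1.40 (SE 0.29, adjusted p = 0.000491). The peak 22.8 kb downstream (chr11:54226456-54227780) had the same order, with 402 and 437 in Tprog and 443 and 476 in Ttad against 282 and 231 in Tterm. The strongest Csf2 peak, 34.6 kb downstream (chr11:54214002-54216619), was the one lower in Tprog, at -0.45 in aged and -0.39 in young libraries.

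The remaining state comparisons called more member peaks between Ttran and Tprog than between Ttran and Tterm, and Il2 held 3 of the 4 calls of the latter kind. Ttran against Tprog called 33 of 68 peaks in aged OTC libraries (27 higher, 6 lower) and 29 in young ones (24 higher, 5 lower), beside 17% (9.99% higher, 6.98% lower) and 16.9% (9.07% higher, 7.82% lower) of all peaks. The aged count fell to 19 and 21 without the first and the second Tprog library. Ttran against Tterm called 1 peak in aged and 3 in young libraries, beside 3.22% (1.87% higher, 1.35% lower) and 8.38% (5.02% higher, 3.36% lower) of all peaks. In young libraries 2 of 6 Il2 peaks were higher in Ttran than in Tterm, as many as differed between Ttran and Tprog. These were the strongest peak, at 0.44 (SE 0.11, adjusted p = 0.00282), and a peak 2.5 kb upstream of the start (chr3:37128041-37128797), chosen after its values were seen, with 142, 120 and 194 in Ttran against 160 and 152 in Tprog and 86.6, 73.9 and 87.2 in Tterm, at 0.85 (SE 0.19, adjusted p = 0.0011). The young count over the 6 genes was 7 under TMM scaling, 11 in edgeR, 12 in a fit of the compared groups alone and 5 without Ttran library 2. Over all peaks edgeR called 6121 against 4515 by limma, and the counts over all peaks in the other alternatives are not given. The 1 aged call was the strongest Il2 peak, higher in Ttran by 0.57 (SE 0.13, adjusted p = 0.0044), and the aged count was 0 without Tterm library 1, 3 without Ttran library 2 and 2 with the weakest 25% of peaks left out.

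Ttad, the state of aged hosts without either marker, held intermediate Ifng levels. Against Tterm, 19 of 68 peaks were called (5 higher, 14 lower), beside 7.28% of all peaks (3.02% higher, 4.26% lower), and of these 9 Ifng and 4 Il10 peaks were lower while 3 Il2 and 2 Csf2 peaks were higher. The Il10 count was 2 without Ttad library 1 and 1 without Ttad library 2 or Tterm library 2. The Il2 count was 1 under TMM scaling, quantile normalisation or a fit of the compared groups alone and without Ttad library 2 or Tterm library 1, and the Csf2 count was 1 without Ttad library 2 or Tterm library 2. Against Tprog, 12 were called (9 higher, 3 lower), beside 6.55% (3.82% higher, 2.73% lower), with 7 Ifng and 2 Il10 peaks higher. Against Ttran, 14 were called (3 higher, all of Csf2, and 11 lower), beside 7.74% (3.02% higher, 4.72% lower). These counts rested on single libraries: Ttad against Tterm gave 12 without Ttad library 2 and 9 without Tterm library 2, Ttad against Tprog gave 7 without Tprog library 1 or without either Ttad library, and Ttad against Ttran gave 4 and 7 without the first and second Ttad library, 7 without Ttran library 2 and 9 in a fit of the compared groups alone. The Ifng count against Tterm was 4 without Tterm library 2, and against Tprog 4 in a fit of the compared groups alone and without Tprog library 1 or Ttad library 2, and without either of these the Il10 count was 1. The 3 Csf2 calls against Ttran fell to 0 without Ttad library 1 and to 1 without any other of these 4 libraries. At the strongest Ifng peak Ttad was 0.56 below Tterm on the log2 scale (-0.56, SE 0.08, adjusted p = 1.59e-07) and above Tprog by 0.35 (SE 0.08, adjusted p = 0.00181). Within the Zfp219 libraries Ttad against Tterm called 5 member peaks (2 higher, 3 lower), beside 1.75% of all peaks (0.633% higher, 1.12% lower). In edgeR this comparison called 9 member peaks and 1422 of all peaks, against 942 of all peaks by limma. Ttad against Tprog within these libraries called 14 member peaks (9 higher, 5 lower), beside 7.65% (4.35% higher, 3.3% lower). Within the Dusp5 libraries the counts were 16 (4 higher, 12 lower), beside 7.34% (3.38% higher, 3.96% lower), and 11 (10 higher, 1 lower), beside 7.33% (4.58% higher, 2.75% lower). With a Zfp219 guide the corresponding values at the strongest Ifng peak were -0.26 (adjusted p = 0.0702) and 0.39 (adjusted p = 0.000248), and with a Dusp5 guide -0.48 (adjusted p = 8.44e-06) and 0.27 (adjusted p = 0.0202). Whether a guide shifted Ttad differently from the other aged states was tested directly. No member peak was called for either guide by limma or by edgeR. Over all peaks limma called 0.052% for Zfp219 and 0.169% for Dusp5. At an unadjusted p under 0.05 there were 6 member peaks for each guide. The share of all peaks at that threshold is not given, so nothing is read from this count.

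The state contrast was also run within each guide, on libraries other than those with OTC. Tprog against Tterm called 35 and 36 of 68 peaks in aged Zfp219 and Dusp5 libraries, beside 18.8% (8.38% higher, 10.4% lower) and 22.9% of all peaks (10.3% higher, 12.6% lower). In young ones it called 34 and 37, beside 26.8% (13.3% higher, 13.6% lower) and 29.8% (15.3% higher, 14.5% lower). The aged Zfp219 count was 23 without Tprog library 1. Ifng peaks were called lower 17, 19, 15 and 16 times in these 4 comparisons and never higher. Il2 peaks were called higher 5, 5, 5 and 6 times and never lower, and the aged Il2 counts were 2 or 3 without single libraries: for Zfp219 3 without either Tprog library and 2 without Tterm library 1, and for Dusp5 3 without either Tterm library.

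Most Csf2 peaks were higher in aged hosts. In OTC libraries, over the 3 states sorted in either age, 9 of 12 Csf2 peaks passed as higher in aged than in young hosts and none as lower (median log2 fold change 0.83). For the 6 genes together 29 of 68 were called, 20 higher and 9 lower, beside 36.5% of all peaks (17.3% higher, 19.1% lower). Within the Zfp219 libraries 8 Csf2 peaks were higher (median 0.39) and within the Dusp5 libraries 5 (median 0.29), and none was lower. These 2 comparisons use no OTC library, and over the 6 genes they called 23 (14 higher, 9 lower) and 28 peaks (11 higher, 17 lower), beside 30.3% (14.7% higher, 15.6% lower) and 31.8% (14.5% higher, 17.3% lower) of all peaks. Other genes showed mixed or smaller age differences in OTC libraries: Ifng 5 higher and 4 lower of 27, Il10 2 higher and 3 lower of 10, Il2 2 higher of 6, Il21 2 higher and 1 lower of 11 (5 in all without aged Ttran library 1), and Tnf 1 lower of 2, a call lost without any 1 of 5 libraries. That the Csf2 locus differed from the other 5 was not tested.

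The strongest Csf2 peak, 34.6 kb downstream of the start, held 795 and 847 normalised reads in aged OTC Tprog, 966 and 949 in Ttran and 1143 and 1099 in Tterm, against 371 and 444, then 562, 570 and 551, then 533, 519 and 542 in the young states. Every aged OTC library stood above every young one, whereas the aged and young ranges overlapped with Zfp219 and met closely, without overlap, with Dusp5 (617.8 lowest aged against 616 highest young). The log2 fold change was 0.95 (SE 0.06, adjusted p = 1.25e-26) with OTC, 0.33 (SE 0.06, adjusted p = 2.74e-06) with Zfp219 and 0.49 (SE 0.06, adjusted p = 4e-11) with Dusp5. The peak over the Csf2 promoter shown above (chr11:54248950-54250087) held 586 to 719 in the 6 aged OTC libraries of these states (median 636) and 288 to 456 in the 8 young ones (median 361). The ranges did not overlap, and the age difference was 0.82 with OTC (SE 0.08, adjusted p = 4.58e-16), 0.37 with Zfp219 (SE 0.08, adjusted p = 8.46e-05) and 0.26 with Dusp5 (SE 0.08, adjusted p = 0.00485). The peak 22.8 kb downstream had the largest called rise, with 231 to 437 in aged OTC (median 281) and 51.8 to 156 in young OTC libraries (median 89.3), a log2 change of 1.75 (SE 0.12, adjusted p = 1.47e-22). The strongest peak of Il3, the neighbouring gene for another myeloid growth factor, was also higher in aged OTC libraries (1.34, adjusted p = 6.6e-08).

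**Figure D3:**
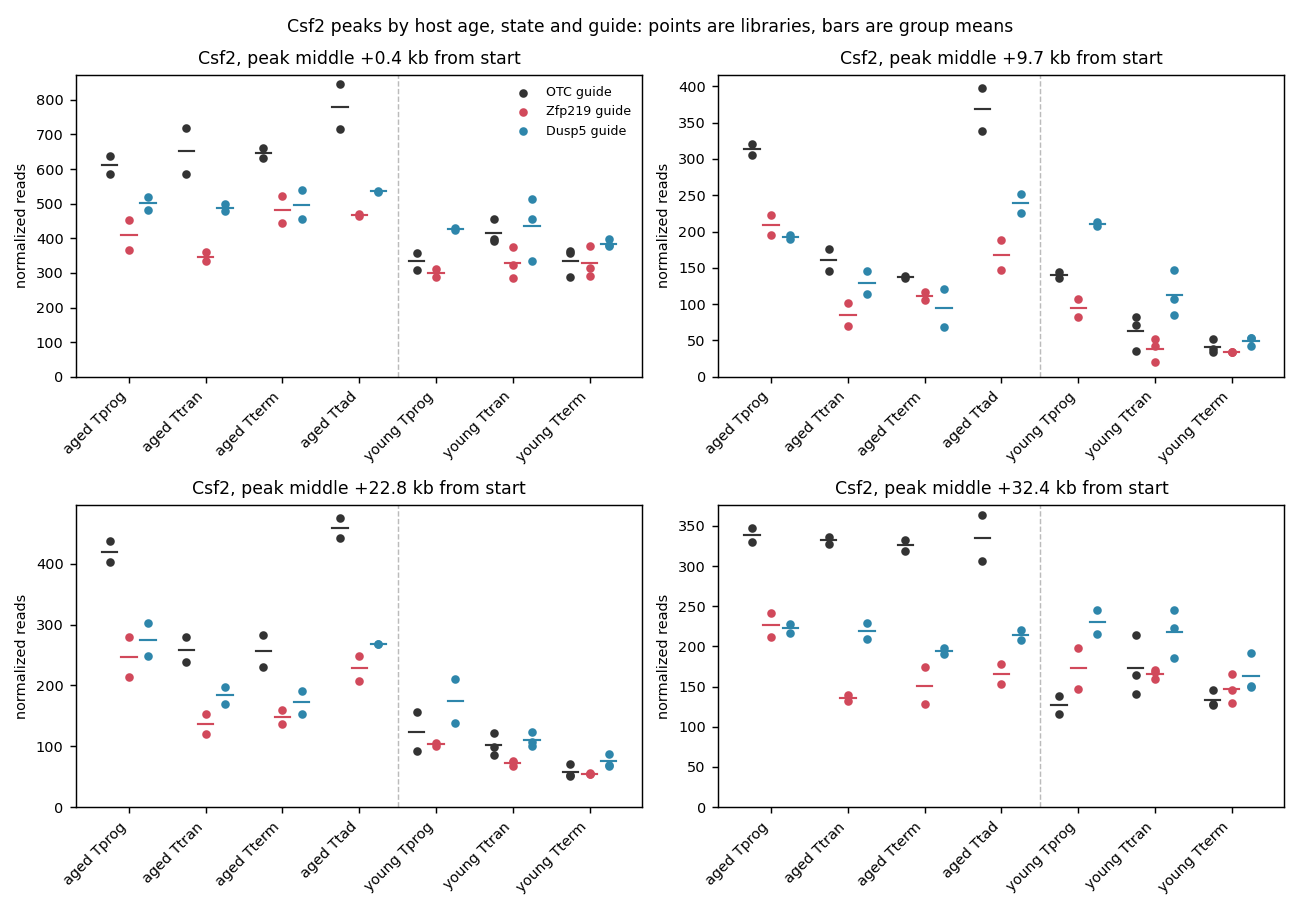
Normalised reads at 4 Csf2 peaks, at the start and 9.7, 22.8 and 32.4 kb downstream of it, with libraries as points and group means as bars by host age, sorted state and guide. In aged hosts the OTC mean is the highest of the guides in every state and panel, and in aged libraries the Tprog and Ttad means exceed those of Ttran and Tterm at 9.7 and 22.8 kb.

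Among the other genes, the strongest Il2 peak was higher in aged than in young OTC libraries by 0.60 (SE 0.07, adjusted p = 1.35e-11), with 0.05 (SE 0.07, adjusted p = 0.656) in Zfp219 and 0.15 (SE 0.07, adjusted p = 0.103) in Dusp5 libraries. The strongest Il10 peak was lower in aged hosts under every guide: it held 953 to 1328 in aged and 1206 to 1478 in young OTC libraries of the 3 shared states, and the log2 fold change was -0.27 with OTC (SE 0.05, adjusted p = 6.82e-07), -0.29 with Zfp219 (adjusted p = 2.78e-07) and -0.35 with Dusp5 (adjusted p = 1.08e-09). The Ifng start peak differed by -0.12 (SE 0.04, adjusted p = 0.0241) with OTC, a call lost without any 1 of 5 libraries. An Ifng peak 36.4 kb downstream of the start (chr10:118477002-118477833) was lower in aged OTC libraries by more, at -1.02 (SE 0.18, adjusted p = 1.27e-06). The Il21 peak 52.6 kb downstream of its start rose from between 4.22 and 17.2 in young to between 14.7 and 35.5 in aged OTC libraries of these states, a log2 change of 1.56 (SE 0.32, adjusted p = 4.08e-05). The ranges overlap and the reads are few.

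More member peaks were called for the guides in aged than in young hosts, and so were more of all peaks. The member shares were 35.3% aged and 14.7% young for Zfp219, and 19.1% and 10.3% for Dusp5. Zfp219 against OTC called 24 of 68 peaks over the 4 aged states (4 higher, 20 lower), beside 25.8% of all peaks (12.1% higher, 13.7% lower), and 10 over the 3 young states (1 higher, 9 lower), beside 7.07% (1.92% higher, 5.15% lower). Dusp5 against OTC called 13 in aged hosts, all lower, beside 12.2% (4.35% higher, 7.87% lower), and 7 in young hosts (6 higher, 1 lower), beside 3.82% (1.8% higher, 2.02% lower). The young counts were 6 without young Zfp219 Tprog library 2 and 4 without young OTC Tprog library 2. Csf2 supplied 10 of the 20 lower calls for Zfp219 and 8 of the 13 for Dusp5 in aged hosts, with medians of -0.67 and -0.40 over its 12 peaks. The 2 guides were set against the same aged OTC libraries, which also enter the age comparison above, so those counts are not independent of each other.

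At the strongest Csf2 peak the 8 aged libraries held 795 to 1143 normalised reads with OTC (median 958), 560 to 700 with Zfp219 (median 650) and 618 to 881 with Dusp5 (median 818). OTC and Zfp219 did not overlap, and OTC and Dusp5 did. Zfp219 gave -0.58 in aged hosts (SE 0.05, adjusted p = 8.78e-16) and 0.04 in young ones (SE 0.05, adjusted p = 0.759). Dusp5 gave -0.33 in aged hosts (SE 0.05, adjusted p = 2.24e-06) and 0.13 in young ones (SE 0.05, adjusted p = 0.176). At the Csf2 promoter peak the aged ranges were 586 to 845 with OTC, 335 to 522 with Zfp219 and 457 to 538 with Dusp5, so neither guide overlapped OTC. Zfp219 gave -0.66 there (SE 0.07, adjusted p = 6.33e-13) and Dusp5 -0.40 (SE 0.07, adjusted p = 1.03e-05). The largest call in aged hosts was 32.4 kb downstream (chr11:54217012-54217909), with 307 to 364 in OTC, 128 to 242 in Zfp219 and 191 to 229 in Dusp5 libraries, log2 fold changes of -0.9995 (SE 0.09, adjusted p = 4.4e-15) and -0.65 (SE 0.09, adjusted p = 1.85e-07). In young hosts this peak was 0.18 with Zfp219 (SE 0.10, adjusted p = 0.295) and 0.49 higher with Dusp5 (SE 0.10, adjusted p = 0.00035).

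The test of the guide effect between ages, over the 3 shared states, called 9 member peaks for Zfp219 and 8 for Dusp5, all lower in aged hosts, beside 9.11% (5.01% lower) and 4% (2.73% lower) of all peaks. Csf2 held 6 and 7 of them. At the peak 32.4 kb downstream of Csf2 the difference was -1.17 for Zfp219 (SE 0.15, adjusted p = 3.58e-09) and -1.14 for Dusp5 (SE 0.15, adjusted p = 2.56e-08), and the aged and young OTC libraries are shared by these 2 tests. At the Csf2 peak 9.7 kb downstream the difference was called for Dusp5 (-1.12, SE 0.23, adjusted p = 0.000496) and not for Zfp219 (-0.11, SE 0.23, adjusted p = 0.837). At the strongest Il2 peak the values were -0.56 (SE 0.10, adjusted p = 4.17e-05) for Zfp219 and -0.46 (SE 0.10, adjusted p = 0.00181) for Dusp5.

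Zfp219 and Dusp5 libraries were also set against each other, a comparison added after the other results were known, which uses no OTC library. In aged hosts 26 of 68 peaks were called (7 higher with Zfp219, 19 lower), beside 22.3% of all peaks (11.6% higher, 10.7% lower), and in young hosts 19 (2 higher, 17 lower), beside 8.16% (2.76% higher, 5.4% lower). Csf2 gave 5 lower in aged and 8 lower in young hosts, and Il2 gave 5 of 6 lower in aged and 2 lower in young hosts. The strongest Il2 peak was lower with Zfp219 than with Dusp5 by -0.38 in aged (SE 0.07, adjusted p = 4.65e-06) and by -0.27 in young hosts (SE 0.07, adjusted p = 0.00352).

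At Il2 the aged Zfp219 libraries held 573 and 615 normalised reads in Tprog, 358 and 332 in Ttran, 356 and 273 in Tterm, and 421 and 447 in Ttad at the strongest peak, each pair below that of OTC in the same state. The log2 fold change against OTC was -0.67 (SE 0.07, adjusted p = 2.09e-14) in aged and -0.06 (SE 0.07, adjusted p = 0.683) in young hosts. For Dusp5 it was -0.29 (SE 0.07, adjusted p = 0.000933) in aged and 0.21 (SE 0.07, adjusted p = 0.0491) in young hosts, and the young call was lost without any 1 of 11 libraries. A second Il2 peak, 31.3 kb upstream (chr3:37156947-37157549), was lower with Zfp219 in aged (-0.71, SE 0.11, adjusted p = 1.85e-07) and in young hosts (-0.38, SE 0.11, adjusted p = 0.0203), the latter lost without any 1 of 4 libraries. The Il2 promoter peak was not called for either guide against OTC in either age, and it was lower with Zfp219 than with Dusp5 in aged hosts (-0.47, SE 0.17, adjusted p = 0.0429).

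Il21 differed between the guides at its promoter. The start peak (chr3:37232612-37233289), which covers 275 of the 300 promoter bases shown, held 70.4 to 132 normalised reads in the 8 aged OTC libraries and 41.8 to 75.5 in the 8 aged Zfp219 libraries, with a small overlap. Zfp219 gave -0.68 in aged hosts (SE 0.15, adjusted p = 0.000187) and 0.42 in young hosts (SE 0.15, adjusted p = 0.0711), and the difference between the ages was -1.08 (SE 0.23, adjusted p = 0.000528). Dusp5 gave -0.15 in aged (adjusted p = 0.565) and -0.16 in young hosts (adjusted p = 0.664). Set against Dusp5 directly, Zfp219 was lower in aged (-0.53, SE 0.15, adjusted p = 0.00549) and higher in young hosts (0.59, SE 0.15, adjusted p = 0.00636). At Il10, Zfp219 called 2 of 10 peaks in aged hosts (1 without any 1 of 5 libraries) and 1 in young hosts, beside 25.8% and 7.07% of all peaks. The young Zfp219 call was lost in 12 of 23 alternatives. Dusp5 called 1 Il10 peak in young hosts, beside 3.82%, a call lost in 2 of 23 alternatives. At Tnf the 1 call of 2 peaks was for Zfp219 in young hosts. The Il10 peak 19.5 kb below the gene was lower with Zfp219 in aged hosts (-0.29, SE 0.04, adjusted p = 1.13e-07), and the Tnf peak 1.3 kb into the gene was lower with Zfp219 in young hosts (-0.25, SE 0.05, adjusted p = 0.000509) and 0.02 in aged ones (adjusted p = 0.84).

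At Ifng the share of peaks called for the guides lay near that over all peaks in aged hosts. Zfp219 called 3 peaks higher and 3 lower of 27 in aged hosts, beside 25.8% of all peaks, and 3 lower in young ones, beside 7.07%. Dusp5 called 3 lower in aged hosts, beside 12.2%, and 1 higher in young hosts, beside 3.82%. The aged Dusp5 count ranged from 0 to 4 over the alternatives and was 0 without Dusp5 Ttran library 2 or OTC Tterm library 1, and the young one ranged from 0 to 3 and was 0 without OTC Tprog library 2. At the strongest Ifng peak Zfp219 against OTC was 0.07 in aged (SE 0.04, adjusted p = 0.194) and -0.15 in young hosts (SE 0.04, adjusted p = 0.012). Dusp5 was -0.11 in aged (SE 0.04, adjusted p = 0.0451) and -0.11 in young hosts (SE 0.04, adjusted p = 0.115), and the aged call was lost under quantile normalisation, under TMM scaling, in a fit of the compared groups alone, in edgeR and without any 1 of 11 libraries. At the Ifng start peak the guide differences lay between -0.07 and 0.06, with none called.

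**Figure D4:**
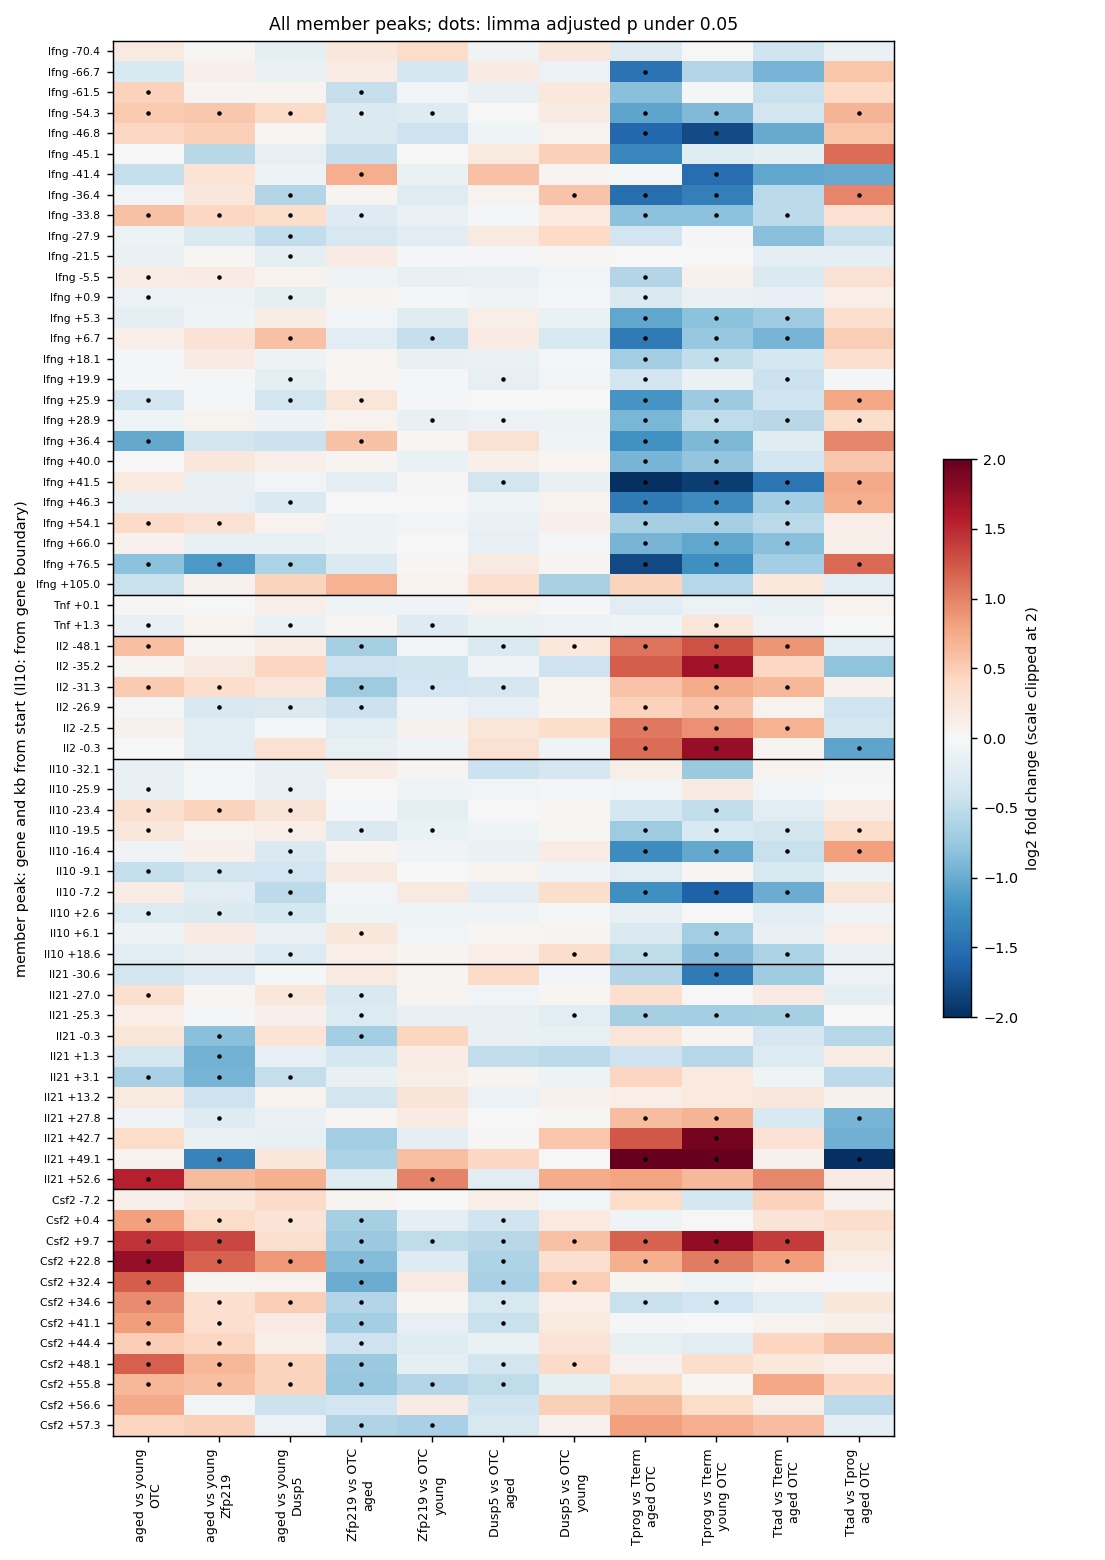
Log2 fold changes of all 68 peaks (rows, by gene and position) in 11 comparisons (columns), with colour for the size and direction, clipped at 2, and a dot where the adjusted p was under 0.05. Ifng rows are mostly negative and Il2 rows positive in Tprog against Tterm. Csf2 rows are mostly positive for aged against young and mostly negative for the guides in aged hosts.

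Across the 21 group means, peaks of one gene followed each other to different degrees, given as a description since groups share libraries' depth and sorted states. The median correlation between peaks was 0.68 for Csf2, 0.68 for Il2, 0.57 for Ifng, 0.40 for Il10 and 0.09 for Il21, and -0.19 for the pair at Tnf. Between genes, the strongest peaks of Ifng and Il2 had a correlation of -0.79, Ifng and Il21 of 0.77 and Il2 and Il21 of -0.64. By the same measure over 21 groups, the genes with the peak most like the strongest Ifng peak were Zcwpw2, Ccl4 and Ccl5 (each 0.98), and Ccl4 and Ccl5 encode chemokines of cytotoxic cells. For Il2 they were Dip2b, Ipmk and Vps13d (each 0.96), for Csf2 Itpr1, Cep85l and Tnk2 (0.98, 0.97 and 0.95), for Il10 Bcar1, Rap1b and Bloc1s4 (0.95, 0.95 and 0.93), for Il21 Adgrg1, Unc5b and Sppl3 (each 0.91), and for Tnf Slc35e1, Emc9 and Sptssa (0.84, 0.81 and 0.81).

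Lists of related genes gave the surroundings of these results, with each peak assigned in the same way. Of 79 peaks at 23 other cytokine genes, 13 were called between Tprog and Tterm in aged OTC libraries (7 higher, 6 lower), beside 20.1% of all peaks, and 33 between ages (22 higher, 11 lower), beside 36.5%; these are 16.5% and 41.8% of the list. Il6, an inflammatory cytokine, was lower in Tprog than in Tterm at its strongest peak (-2.08, adjusted p = 3.4e-10), and Il17a was higher (2.83, adjusted p = 6.3e-06). Of 89 peaks at 13 receptor genes for these cytokines, 31 or 34.8% were called in Tprog against Tterm (7 higher, 24 lower), beside 20.1%, and Dusp5 against OTC in aged hosts called 28 or 31.5%, all lower, beside 12.2%. Ifngr2, a chain of the interferon gamma receptor, was higher in Tprog at its strongest peak (0.42, adjusted p = 4.1e-06), and Csf2rb, the shared beta chain of the GM-CSF receptor, was lower (-0.68, adjusted p = 0.0052). Of 234 peaks at 18 genes for factors acting on these genes or their transcripts, 61 or 26.1% were called in Tprog against Tterm (20 higher, 41 lower), beside 20.1%, and Zfp219 against OTC in aged hosts called 87 or 37.2% (21 higher, 66 lower), beside 25.8%. The strongest peaks of Prdm1, which encodes the repressor Blimp-1, and Tbx21, which encodes T-bet, were lower in aged OTC Tprog. They gave -0.98 (adjusted p = 2.9e-13) and -0.27 (adjusted p = 0.02). In young OTC libraries the values were -0.34 (adjusted p = 0.0035) and 0.06 (adjusted p = 0.63). Others in this list went in either direction. Ikzf2 was higher in aged Tprog (0.44, adjusted p = 0.012). Runx3 was lower in aged (-0.39, adjusted p = 2.7e-07) and higher in young Tprog (0.26, adjusted p = 0.00014).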

How the data were processed

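ATAC-seq was measured in 48 libraries of 21 groups. Per the submitters' processing notes, the authors used Bowtie2 2.2.9, Picard 2.8.0, SAMtools 1.3.1, MACS2 2.1.1 and DESeq2 1.28.1 with the mm10 build; parameters are not given in the sources used here. The deposited table holds signal, that is, 1 normalised read value per peak and library, on 1 peak set for all libraries. Each library's values are whole multiples of 1 step: dividing by it gave whole reads for 100% of values (tolerance 0.01 read), 5638413 to 29942755 reads in peaks, which limits precision at weak peaks.

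Peaks were assigned with the RefSeq genes of GRCm38.p6, and 5 of the 6 genes had a RefSeq promoter. Titles beginning A and Y were read as aged and young hosts. One limma 3.58.1 model (R 4.3.3) of log2(value + 1), with trend and a mean for each group, gave all comparisons over 53868 peaks. Named per gene were the strongest peak, the peak over the start and, in each comparison, the called peak with the largest change; a few further peaks were chosen after their values were seen. The members, gene lists and comparisons were chosen with earlier results of these data known. Alternatives were edgeR 4.0.16 (quasi-likelihood, TMM) on recovered reads, which called 36 member peaks where limma called 34 in aged Tprog against Tterm, other scalings, a pseudocount of 8, leaving out the weakest 25% of peaks, fits on the compared groups only, a replicate block, other distances to genes, and leaving out each library. The scripts were tested on simulated data.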

Additional observations from a re-analysis of the deposited data

Results flagged for a closer look

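Results are given here where a test of the difference between host ages passed an adjusted p of 0.05 (limma). For Tprog against Tterm in OTC libraries, 3 member peaks differed between the ages. The named ones were the Ifng peak 5.5 kb upstream of the start, at a difference of -0.68 on the log2 scale, and the Il10 peak 19.5 kb below the gene, at -0.41, which depends on the scaling and on single libraries as stated above. For Zfp219 against OTC, 9 member peaks differed between aged and young hosts, among them the strongest Il2 peak at -0.56, the Il21 peak 49.1 kb downstream of its start at -1.41 and the Csf2 peak 32.4 kb downstream at -1.17. The Il21 value rests on low reads, from 3.45 to 79.6 in the aged Zfp219 libraries and 11.6 to 162 in the young ones, and its call was lost without any 1 of 10 libraries. For Dusp5 against OTC, 8 member peaks differed, with the strongest Il2 peak at -0.46 and the Csf2 peak 32.4 kb downstream at -1.14. The comparisons for the 2 guides share their OTC libraries, and aged and young libraries came from separate sample sheets.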

How the results depend on the processing

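Of 80 called comparisons of named peaks, 29 lost the call in at least 1 alternative and 0 changed direction. Over all 6 genes, the number of called member peaks moved by over 1.5 times under TMM scaling, edgeR, the weakest peaks left out or a fit of the compared groups for Ttran against Tterm and Ttad against Ttran, as given above, and in edgeR also for Ttad against Tterm within the Zfp219 libraries (9 against 5). For Ttad within the Zfp219 and Dusp5 libraries, only edgeR and the replicate block were run as alternatives. Quantile normalisation left 1 of the 3 peaks whose Tprog to Tterm difference depended on age, and leaving out any 1 library gave 1 to 2. With 1 library left out, the called member peaks numbered 19 to 25 for Ttran against Tprog in aged hosts, 7 to 8 for Ttad against Tprog, 9 to 13 for Ttad against Tterm, and in young hosts 4 to 8 for Dusp5 and 6 to 11 for Zfp219 against OTC. Replicate numbers were not used as pairs, since which mice went into which library is not stated. Between groups, deviations of the libraries numbered 1 from their group means had correlations between -0.0184 and 0.0182. These correlations cannot show whether pools were shared. A replicate block gave 35 called peaks for Tprog against Tterm in aged hosts against 34 without it. Under the replicate block the uncalled age difference at the Il2 start peak turned to -0.0232. Other uncalled values that changed sign were, under quantile normalisation, the Ifng start peak for Dusp5 in aged hosts (0.023), and Tprog against Tterm in aged hosts at the Csf2 start (0.00421) and 1.3 kb into Tnf (0.000421). With single libraries left out, the age difference at the Il2 start ranged from -0.233 to 0.243, Zfp219 in aged hosts there from -0.338 to 0.0186, and at the Tnf start Ttad against Tterm from -0.378 to 0.103, the age difference from -0.0511 to 0.109, and Tprog against Tterm from -0.449 to 0.0318. Counting only peaks over gene bodies leaves 9 member peaks. Peaks with few reads, such as several at Il21, limit what small differences could be seen.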
